A study of Homo sapiens with 4 samples.

Results

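Aminoacyl-tRNA synthetases join each amino acid to its transfer RNA and so supply the ribosome with charged tRNA. Members were the genes with a synthetase name in the deposited expression table, 20 genes for the cytosolic enzymes and 16 for the mitochondrial enzymes. All 36 were found among the 20329 genes of the table, and all 36 were tested. Mitochondrial enzymes are made in the cytosol from nuclear genes and imported, and most carry a final 2 in their symbol. GARS and KARS each encode both the cytosolic and the mitochondrial enzyme and are counted here as cytosolic. EPRS is a fusion with glutamate and proline activity, and FARSA and FARSB encode the α and β subunits of the cytosolic phenylalanine enzyme. Several cytosolic enzymes sit together in the multi-synthetase complex, and many cytosolic synthetase genes are known targets of ATF4, the transcription factor of the amino acid and unfolded protein responses.

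RNA was sequenced from 4 cultures of human breast cancer cells, 1 library for each line and treatment. BM1 (1833) and LM2 (4175) are derivatives of MDA-MB-231 labelled as coming from bone and lung metastasis. In each line, control cells carried a non-specific shRNA and knockdown cells carried an shRNA against hnRNPM, a nuclear RNA-binding protein that regulates splicing. All 4 cultures stably expressed a lentiviral shRNA, and their sequences are not used here. No line and treatment had a repeat culture, so a difference within a line has no replicate check.

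The values are FPKM (fragment counts scaled for gene length and for the mapped fragments of the library), a scale on which levels of different genes can be set side by side. HNRNPM, the targeted gene, was at 171 FPKM in the BM1 control against 28.4 in the knockdown. In LM2 it was at 132 FPKM against 20.3. It fell by 2.59 ± 0.25 (SE) on the log2(FPKM + 1) scale, with a limma adjusted p of 0.00318. That call was lost in 8 of 14 alternative fits, 7 of which called no gene at all, with the difference between −2.83 and −2.36. The steps between low FPKM values correspond to about 22800000 to 41500000 fragments per library. At that depth the member with the fewest reads, PARS2, still had about 218 to 380 fragments in each library. Genes of the mitochondrial genome took 9.31% and 8.8% of the FPKM sum in the BM1 and LM2 controls, and 12.84% and 11.82% in the knockdowns. Of 6 marker genes listed for MDA-MB-231, VIM was at 1160 to 2354 FPKM and CD44 at 155 to 223 FPKM, EPCAM was at 3.0 to 4.59 FPKM, ERBB2 was at 13.5 to 21.9 FPKM, and ESR1 and PGR have no entry. Of 7 markers of leukocytes, endothelium and fibroblasts, PTPRC, CD3E, PECAM1 and DCN have no entry and VWF was at most 0.163 FPKM. In BM1, PDGFRB went from 1.37 in the control to 3.24 FPKM in the knockdown, and in LM2 from 0.699 to 2.93 FPKM. CD68 went from 23.5 to 4.46 FPKM in BM1, from 9.50 to 2.04 FPKM in LM2, and fell with the knockdown (limma adjusted p 0.00969, also lost in 8 of 14). Any part of these markers in the synthetase results was not tested.

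In all 17 pairs of a cytosolic and a mitochondrial gene for the same amino acid, the cytosolic gene was the higher in every library. The median mean level was 63.5 FPKM over the cytosolic genes (24.1 for FARSB to 200.1 for GARS) and 10.7 FPKM over the mitochondrial genes (4.1 for AARS2 to 43.0 for IARS2), against 9.15 FPKM over the 13928 genes tested. GARS, the glycine enzyme of both compartments, was at 219.7, 187, 206 and 188 FPKM. This and all later sets of 4 values give the BM1 control first, then its knockdown, then the LM2 control and its knockdown. SARS (serine) and TARS (threonine) followed at mean levels of 149 and 106 FPKM, and KARS (lysine, both compartments) at 101 FPKM. The SD over the 4 libraries was 15.7 FPKM for GARS, 46.9 for SARS, 51.2 for TARS and 22.4 for KARS, and it includes line and treatment differences. SARS was above TARS in every library. KARS was above both in the BM1 knockdown and below both in the LM2 libraries, so its place in the order changed. IARS2, for mitochondrial isoleucine, was the highest mitochondrial gene, at 29.8, 42.8, 47.6 and 51.9 FPKM. CARS2 followed at a mean of 21.6 FPKM, and all other mitochondrial genes had a mean of 14.1 FPKM or lower.

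**Figure D1:**
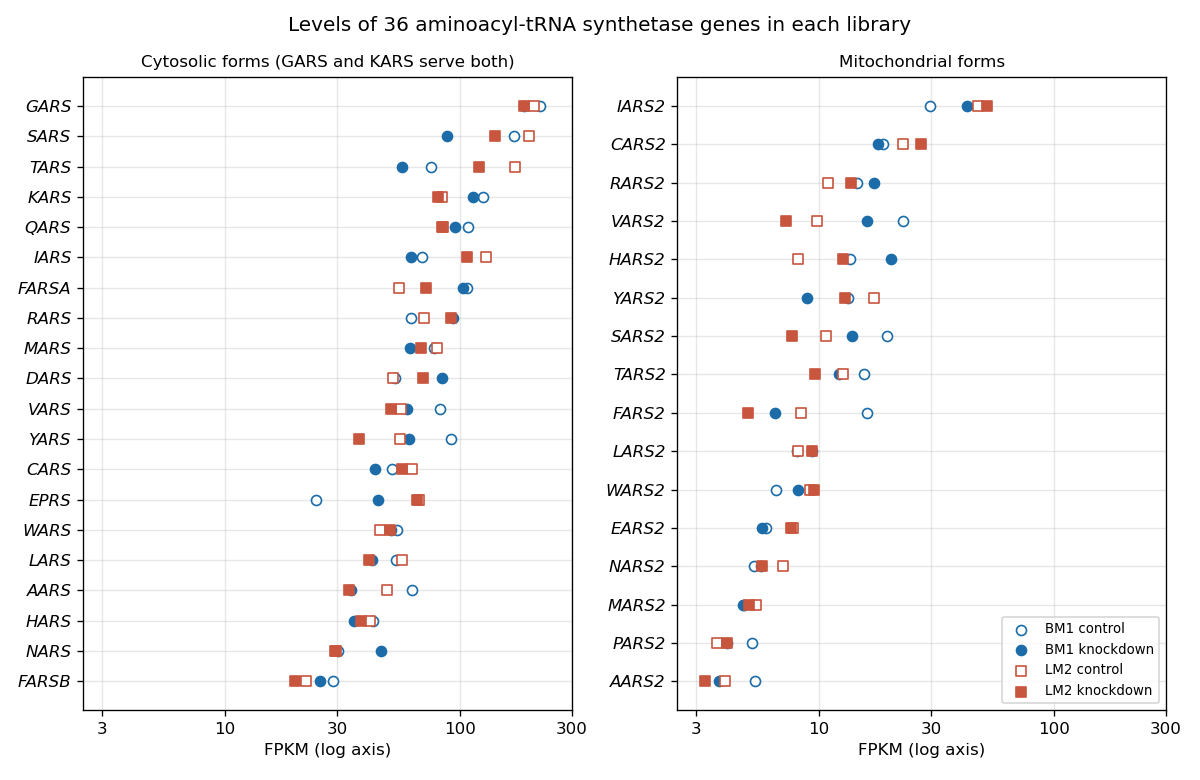
FPKM of each synthetase gene in each of the 4 libraries, on a log axis, with 1 point per library. Cytosolic genes lie between 24.1 (FARSB) and 200.1 FPKM (GARS) on average, and mitochondrial genes between 4.1 (AARS2) and 43.0 FPKM (IARS2).

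Fitting line and treatment to log2(FPKM + 1) over all 13928 genes, limma called 0 of the 36 synthetase genes changed by the knockdown at an adjusted p under 0.05, against 5.47% of all genes tested. At an unadjusted p under 0.05 there were 4 members (AARS, SARS, YARS and FARS2, all lower), or 11.1%, against 24.9% of all genes. The share of synthetase genes past either limit was therefore below the share of all genes. The fit has 1 residual degree of freedom per gene, and an exact permutation test over 2 pairs cannot give a two-sided p below 0.5. Each SE given is limma's, which draws on the variance of all genes, so it is not the spread of that gene alone. Over the members it ran only from 0.25 (as for YARS) to 0.29 (EPRS). In bulk RNA, fewer cells that express a gene and less RNA per cell cannot be told apart.

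Most synthetase genes were lower with the knockdown in both lines, by small amounts. The FPKM was lower in both knockdowns than in the control of the same line for 22 of 36 members (61.1%), against 36.2% of all genes tested. It was higher in both for 6 members (16.7%), DARS, RARS, HARS2, IARS2, RARS2 and WARS2, against 33.0% of all genes. The other 8 members went in opposite directions in the 2 lines. The count of 22 was 18 when FPKM was rescaled without the mitochondrial genome and 19 with median-ratio size factors, so it moves with the scaling. The median difference between knockdown and control on the log2 scale was −0.19 in BM1 and −0.13 in LM2 over the members, against 0.0047 and −0.0385 over all genes.

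Few members reached a 1.5-fold difference in either line, taken on the log2(FPKM + 1) scale. In BM1, AARS, SARS, YARS and FARS2 were lower by at least 1.5-fold, which is 11.1% of the members against 16.8% of all genes. DARS, EPRS, NARS and RARS were higher by at least 1.5-fold in BM1, again 11.1%, against 21.0% of all genes. In LM2, FARS2 alone was lower by 1.5-fold (2.78% against 13.9%) and no member was higher by that much (10.7% of all genes), with HARS2 at 0.58 just under the limit of 0.585. At 2-fold in either direction, FARS2 in BM1 was the single member (2.78%, against 16.3% of all genes), and there was none in LM2 (8.06% of all genes). The 2 knockdown libraries were both below both controls for 10 members (27.8%), against 22.6% of all genes, and both above both controls for DARS and RARS (5.56%), against 21.8%. Across the 36 genes, the difference in BM1 and that in LM2 had a Pearson r of 0.76 (Spearman rho 0.81), and across all 13928 genes 0.55 (rho 0.55). These are descriptions across genes, which are not independent replicates, and the genes of a line share its 2 libraries.

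**Figure D2:**
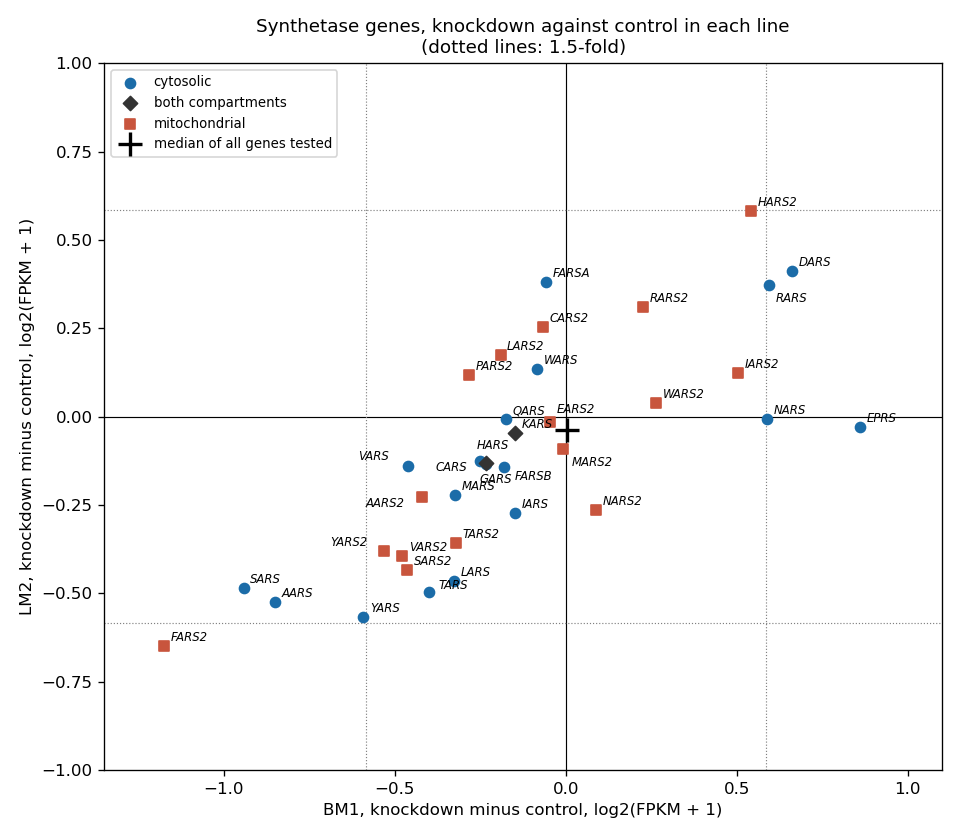
Knockdown minus control on the log2(FPKM + 1) scale for each synthetase gene, with BM1 on the x axis and LM2 on the y axis. FARS2, SARS, AARS and YARS lie at the lower left and DARS, RARS and HARS2 at the upper right, with EPRS and NARS high in BM1 and near 0 in LM2.

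Among the cytosolic genes, 14 of 20 were lower in both lines and 2 were higher in both, with a median difference of −0.21 in BM1 and −0.13 in LM2. SARS, the serine enzyme gene (chr1:109756540-109780791 on GRCh37, plus strand), was at 170.2, 88.1, 198 and 141 FPKM. Both knockdown libraries were below both controls, at 51.8% of control in BM1 and 71.4% in LM2. Its fitted difference was −0.71 ± 0.26 (SE) on the log2 scale, with a limma adjusted p of 0.141. AARS, the alanine enzyme gene (chr16:70286198-70323446, minus strand), was at 62.5, 34.3, 49.1 and 33.9 FPKM. The groups again did not overlap, and the 2 knockdown libraries were within 1 FPKM of each other. Its difference was −0.69 ± 0.26 (SE), with a limma adjusted p of 0.146.

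YARS, for tyrosine (chr1:33240838-33283754, minus strand), was at 91.9, 60.6, 55.5 and 37.1 FPKM. It was at 65.9% of control in BM1 and 66.9% in LM2, but the groups overlapped because the BM1 knockdown was above the LM2 control. Its difference was −0.58 ± 0.25 (SE), with a limma adjusted p of 0.194. LARS, for leucine, was at 53.5, 42.4, 57.0 and 41.1 FPKM, with both knockdowns below both controls. MARS, for methionine, was at 77.4, 61.6, 79.8 and 68.3 FPKM, and HARS, for histidine, at 42.6, 35.6, 41.4 and 37.9 FPKM. These are small and non-overlapping differences, with limma adjusted p-values of 0.367, 0.539 and 0.685 for LARS, MARS and HARS. GARS, at 85.0% and 91.3% of control, also kept both knockdowns below both controls. KARS, in contrast, overlapped, at 126, 114, 83.9 and 81.2 FPKM.

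DARS, the aspartate enzyme gene (chr2:136664247-136743670, minus strand), was higher in both knockdowns, at 52.8, 84.1, 52.0 and 69.6 FPKM. The 2 controls were within 1 FPKM of each other and the knockdowns stood at 159% and 134% of them. Its difference was 0.54 ± 0.25 (SE), with a limma adjusted p of 0.232. RARS, for arginine (chr5:167913450-167946304, plus strand), was at 61.9, 94.0, 70.5 and 91.6 FPKM, with both knockdowns above both controls. Its difference was 0.48 ± 0.25 (SE), with a limma adjusted p of 0.277. DARS and RARS were the only 2 members of the 36 with this order of libraries.

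EPRS (chr1:220141943-220220000, minus strand) was at 24.4, 45.1, 66.9 and 65.5 FPKM. The BM1 control was the lowest library and the 2 LM2 libraries were close together. The knockdown stood at 185% of control in BM1 and 97.9% in LM2. The average difference was 0.42 ± 0.29 (SE), with a limma adjusted p of 0.416. NARS, for asparagine, was at 30.4, 46.2, 29.8 and 29.6 FPKM, with the 2 controls close together and the BM1 knockdown as the high library.

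The multi-synthetase complex holds the enzymes of 8 of these genes, and its genes did not share a direction. AIMP1, AIMP2 and EEF1E1 encode its scaffold proteins. Of the 8 enzyme genes, 5 were lower in both knockdowns (IARS, KARS, LARS, MARS and QARS) and 2 were higher in both (DARS and RARS). EPRS went in opposite directions, with LM2 near no difference at 97.9% of control. Their summed level in the knockdown stood at 104% of control in BM1 (573 to 599 FPKM) and 97.5% in LM2 (624 to 608 FPKM). Of the 12 cytosolic genes outside the complex, 9 were lower in both lines and none was higher in both. Their median differences were −0.24 in BM1 and −0.14 in LM2, against −0.15 and −0.04 for the complex, and the difference between these groups was not tested. With size factors, the complex counted 3 lower and 3 higher. AIMP1 was at 8.55, 21.6, 18.8 and 22.0 FPKM, with the BM1 control as the lowest library. EEF1E1 was at 29.5, 55.6, 28.3 and 25.4 FPKM, and AIMP2 at 64.9, 54.5, 51.8 and 51.0 FPKM. None of these 3 passed the limma threshold.

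FARSA and FARSB encode 2 subunits of 1 enzyme. FARSA was at 107, 103, 55.1 and 72 FPKM, and FARSB at 28.9, 25.4, 22.2 and 20 FPKM. The FARSA to FARSB ratio was 3.71, 4.05, 2.48 and 3.60. FARSA lay highest in the 2 BM1 libraries and FARSB was lower in both knockdowns, at 87.9% and 90.2% of control. Their limma adjusted p-values for the knockdown were 0.745 and 0.733. WARS, the tryptophan enzyme gene, is well known for its induction by interferon gamma. It was at 53.9, 50.8, 46.0 and 50.7 FPKM, with a difference of 0.03 ± 0.25 (SE) and a limma adjusted p of 0.962. From a list of 10 interferon gamma response genes, 8 were tested and limma called none. PSMB9, an immunoproteasome subunit gene, was at 32.7, 13.4, 21.7 and 15.8 FPKM. PSMB9 was thus lower in both knockdowns, while WARS went in opposite directions in the 2 lines.

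Of the 20 cytosolic genes, 13 were on a list of ATF4 targets, and these were 10 of the 14 cytosolic genes with lower values in both lines. None of the 13 was higher in both, and the median difference was −0.32 in BM1 against −0.22 in LM2. Among the 7 cytosolic genes outside the list, 4 were lower and 2 higher, with medians of −0.15 and −0.01. The 10 are 76.9% of the 13, against 36.2% of all genes tested. The count of 10 was the same under every scaling and filter tried, and up to 2 of the 13 were then higher in both. The size was less stable. When a trend in GC content and length was removed, the median over both lines went from −0.27 to −0.13. For all 20 cytosolic genes it went from −0.18 to −0.12. The difference between the listed and the other cytosolic genes was not tested. ATF4 itself was at 228, 139, 239 and 153 FPKM, so both knockdowns were below both controls. Its difference was −0.68 ± 0.25 (SE), with a limma adjusted p of 0.144.

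Promoter sequences are shown for the members that contain TTGCATCA, the letters of the C/EBP-ATF composite element through which ATF4 binds its targets. RefSeq promoter windows (GRCh38.p14, 250 bases before to 50 after the start) were matched for 30 of 36 members. DARS, LARS, VARS, YARS, AARS2 and VARS2 had no window and were not searched. Of these, LARS, VARS and YARS are on the ATF4 target list and were lower in both knockdowns, so whether they hold the motif is not known here. TTGCATCA, searched on both strands, was in windows of 6 members, all cytosolic and all on the ATF4 target list, and in 0.866% of all 35116 windows. The motif was chosen with the expression values known, and the stretches are written 5′ to 3′ on the gene's strand with the motif in capitals. Each stretch ends 8 bases after the motif.
AARS, chr16:70289678-70289756, minus strand: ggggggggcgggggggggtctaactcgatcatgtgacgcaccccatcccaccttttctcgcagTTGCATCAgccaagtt
CARS, chr11:3057410-3057497, minus strand: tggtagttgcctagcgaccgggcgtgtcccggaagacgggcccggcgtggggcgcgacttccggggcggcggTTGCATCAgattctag
IARS, chr9:92293695-92293782, minus strand: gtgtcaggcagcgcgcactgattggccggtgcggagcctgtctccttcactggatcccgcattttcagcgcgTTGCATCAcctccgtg
MARS, chr12:57487992-57488079, plus strand: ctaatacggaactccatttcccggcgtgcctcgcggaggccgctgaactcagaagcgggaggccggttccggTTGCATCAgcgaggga
NARS, chr18:57621807-57621894, minus strand: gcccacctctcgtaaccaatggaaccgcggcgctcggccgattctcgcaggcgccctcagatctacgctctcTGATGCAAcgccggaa
TARS, chr5:33440895-33440982, plus strand: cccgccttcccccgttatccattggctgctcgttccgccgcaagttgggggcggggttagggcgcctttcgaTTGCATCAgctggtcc

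In 5 of the 6 promoters, the motif lay within 22 bases of the annotated start, and in AARS it lay from −187 to −180, counted from the start with no position 0. NARS held it as the reverse complement. A looser form, TGATGNAA, which contains the reverse complement TGATGCAA, was also in GARS and YARS2, and in 3.62% of all windows. TTGCATCA was in 4 of 20 matched genes of the wider amino acid response list (CHAC1, SLC1A4, SLC1A5 and CEBPG). Of the 6 synthetase genes, 5 were lower in both knockdowns. NARS went in opposite directions, with LM2 near no difference at 99.5% of control. The median difference of the 6 was −0.28 in BM1 against −0.25 in LM2. CARS, for cysteine, was at 51.6, 43.7, 62.5 and 56.9 FPKM, IARS, for isoleucine, at 68.8, 61.9, 129 and 107 FPKM, and TARS at 75.6, 57.0, 172 and 121 FPKM. In CARS, IARS and TARS the line differed more than the treatment. SARS, with a lower value in both knockdowns, held neither form in its windows. The other motifs searched were the E-box CACGTG (4 members, 7.26% of windows), the ETS motif CCGGAAGT (8 members, 4.14%), CCAAT (16 members, 34.6%) and TATAAA (2 members, 11.5%). A match is a match of letters, and no binding was measured.

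The mitochondrial genes were mixed. Of 16, 8 were lower in both knockdowns, 4 higher in both (HARS2, IARS2, RARS2 and WARS2) and 4 opposite, and the median difference was −0.13 in BM1 against −0.05 in LM2. FARS2, the mitochondrial phenylalanine enzyme gene (chr6:5261277-5771813 on GRCh37, plus strand), differed most of all members, at 16, 6.53, 8.36 and 4.97 FPKM. Both knockdowns were below both controls, at 40.8% and 59.5% of control. Its difference was −0.91 ± 0.27 (SE), with a limma adjusted p of 0.0833. YARS2 was at 13.3, 8.87, 17.1 and 12.9 FPKM and TARS2 at 15.5, 12.2, 12.7 and 9.67 FPKM. SARS2 was at 19.5, 13.9, 10.7 and 7.67 FPKM, at 71.0% and 71.5% of control. In YARS2 and TARS2 both knockdowns were below both controls, and in SARS2 the BM1 knockdown was above the LM2 control. The differences of YARS2 and SARS2 were −0.46 ± 0.25 and −0.45 ± 0.25 (SE), with limma adjusted p-values of 0.301 and 0.306.

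HARS and HARS2, for cytosolic and mitochondrial histidine, are neighbours that start back to back on chromosome 5. On GRCh37 the table places HARS at chr5:140052758-140071609 on the minus strand and HARS2 at chr5:140071011-140078876 on the plus strand, an overlap of 599 bases. HARS2 was at 13.6, 20.2, 8.15 and 12.7 FPKM, which is 149% and 156% of control, while HARS was at 83.6% and 91.5%. The HARS2 difference was 0.56 ± 0.25 (SE), with a limma adjusted p of 0.208. The HARS to HARS2 ratio was 3.14 and 1.76 in BM1 and 5.08 and 2.98 in LM2, lower in both knockdowns. HARS2 also overlaps ZMAT2 by 612 bases on the same strand, and ZMAT2 was at 49.8, 43.8, 44.0 and 51.9 FPKM. The strand setting of the counting is not known here, so reads in the overlaps could fall to either gene. The 84 bases between the 2 RefSeq starts are shown because both genes share them. They are written on the HARS2 strand (GRCh38.p14), and the capitals mark the ETS motif CCGGAAGT, which occurs once in each orientation.
HARS to HARS2, chr5:140691371-140691454: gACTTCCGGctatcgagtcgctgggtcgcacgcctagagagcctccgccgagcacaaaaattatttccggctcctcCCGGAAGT

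The other genes with higher values in both knockdowns were smaller in difference. IARS2 was at 143% of control in BM1 and 109% in LM2. RARS2, for mitochondrial arginine, was at 14.6, 17.2, 10.9 and 13.7 FPKM, at 118% and 126% of control. WARS2 was at 6.60, 8.12, 9.21 and 9.50 FPKM. The IARS2, RARS2 and WARS2 groups overlapped because the lines differed, with limma adjusted p-values of 0.493, 0.547 and 0.752. AARS2, for mitochondrial alanine, was at 5.37, 3.76, 4.0 and 3.27 FPKM, with both knockdowns below both controls. The remaining members CARS2, EARS2, LARS2, MARS2, NARS2, PARS2 and QARS were at 78.6% to 120.1% of control in every case.

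Cytosolic and mitochondrial forms for the same amino acid gave 17 pairs of genes, and their ratio ranged from 1.45 (IARS to IARS2, BM1 knockdown) to 18.5 (SARS to SARS2, LM2 control). The ratio was lower in both knockdowns for 9 pairs, higher in both for 5 and opposite for 3. EPRS and FARS2 are each used in more than a single pair, so these counts are not of separate genes. The FARSA to FARS2 ratio was 6.68 and 15.7 in BM1 and 6.59 and 14.5 in LM2, and the FARSB to FARS2 ratio was 1.80 and 3.89 in BM1 and 2.65 and 4.02 in LM2. Both phenylalanine ratios were thus higher in both knockdowns. They share FARS2, which was at 40.8% and 59.5% of control in BM1 and LM2, so they are not separate observations. The IARS to IARS2 ratio was lower, at 2.30 and 1.45 in BM1 and 2.71 and 2.06 in LM2, as did HARS to HARS2. The EPRS to PARS2 ratio was 4.72 and 11.1 in BM1 but 18.2 and 16.1 in LM2. Summed over genes, the cytosolic level in the knockdown stood at 87.4% of control in BM1 and 89.5% in LM2, and the mitochondrial level was 94.9% and 99.7%. The FPKM sum over all genes kept was 455114 in the control and 435868 in the knockdown of BM1, and 434567 and 436464 in LM2. Within it, the share of the mitochondrial genome was 9.31% and 12.84% in BM1, and 8.8% and 11.82% in LM2. The part of that share in the summed synthetase levels was not tested. The ratios and summed levels have no test.

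**Figure D3:**
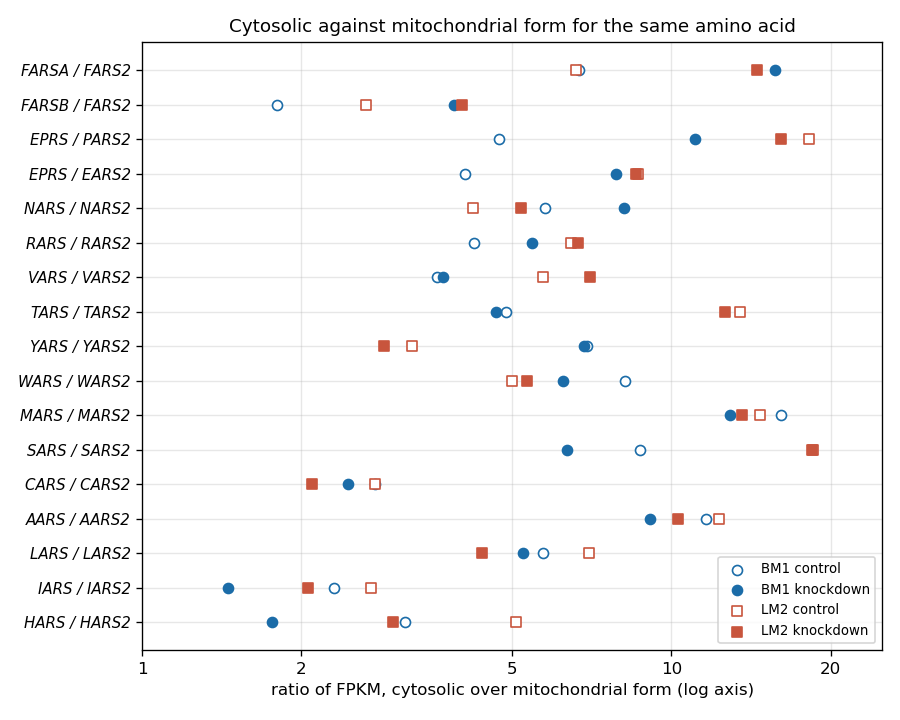
Ratio of cytosolic to mitochondrial FPKM for each of the 17 pairs in control and knockdown libraries of both lines, on a log axis. The FARSA to FARS2 ratio goes from 6.68 to 15.7 in BM1 and from 6.59 to 14.5 in LM2, and the HARS to HARS2 ratio goes down in both lines.

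The difference of a gene moved with its GC content. Across the 36 members, Spearman's rho between GC content and the difference was −0.57 in BM1 and −0.24 in LM2, and across all genes with a value −0.43 and −0.19. For the 20 cytosolic genes it was −0.45 and −0.18, near the values of all genes, and for the 16 mitochondrial genes −0.73 and −0.48. These are descriptions across genes that share their libraries. When a trend in GC content and length was removed from each library, 19 members were lower and 11 higher in both lines, and the mitochondrial median went from −0.07 to 0.02. DARS and RARS, with a GC content of 41.2% and 41.4%, then stood at 0.38 and 0.34, and FARS2 and HARS2 at −0.79 and 0.66. The part of GC content in these differences was not tested beyond this removal.

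PHGDH, the first enzyme of serine synthesis, fell with the knockdown. It was the 1 called gene among 25 tested genes of the wider amino acid response, while limma called 5.47% of all genes. From a list of 26 ATF4 and amino acid response genes, 25 were tested, and the median difference was −0.27 in BM1 against −0.65 in LM2. In both lines, 16 of the 25 were lower (64.0%, against 36.2% of all genes) and 3 were higher. PHGDH was at 27.2, 6.60, 44.4 and 15.5 FPKM. Both knockdowns were below both controls, and PHGDH fell by 1.68 ± 0.26 (SE) with a limma adjusted p of 0.0143. The call was lost in 8 of 14 alternatives, 7 of which called no gene at all, with the difference between −2.24 and −1.12 over the 14. SHMT2, which makes mitochondrial glycine, was at 115, 56.4, 162 and 85.9 FPKM, with a limma adjusted p of 0.0613. ASNS, the asparagine synthetase and a classic ATF4 target, was at 32.1, 18.8, 46.0 and 22.2 FPKM, with a limma adjusted p of 0.0821. PYCR1, of proline synthesis, was at 39.5, 19.4, 28.2 and 15.1 FPKM, with a limma adjusted p of 0.0686. The genes SHMT2, ASNS and PYCR1 were lower in both knockdowns and did not pass the threshold. SLC7A11, the cystine transporter, went the other way, at 4.45, 31.5, 16.6 and 27.7 FPKM, with a limma adjusted p of 0.0525. VEGFA was at 44.9, 30, 51.6 and 16.7 FPKM. The amino acid transporter genes SLC7A5 and SLC3A2, whose products form the LAT1 carrier, were above control in BM1 cells with the shRNA and below it in LM2 cells. SLC7A5 was at 131, 322, 370.2 and 254 FPKM.

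**Figure D4:**
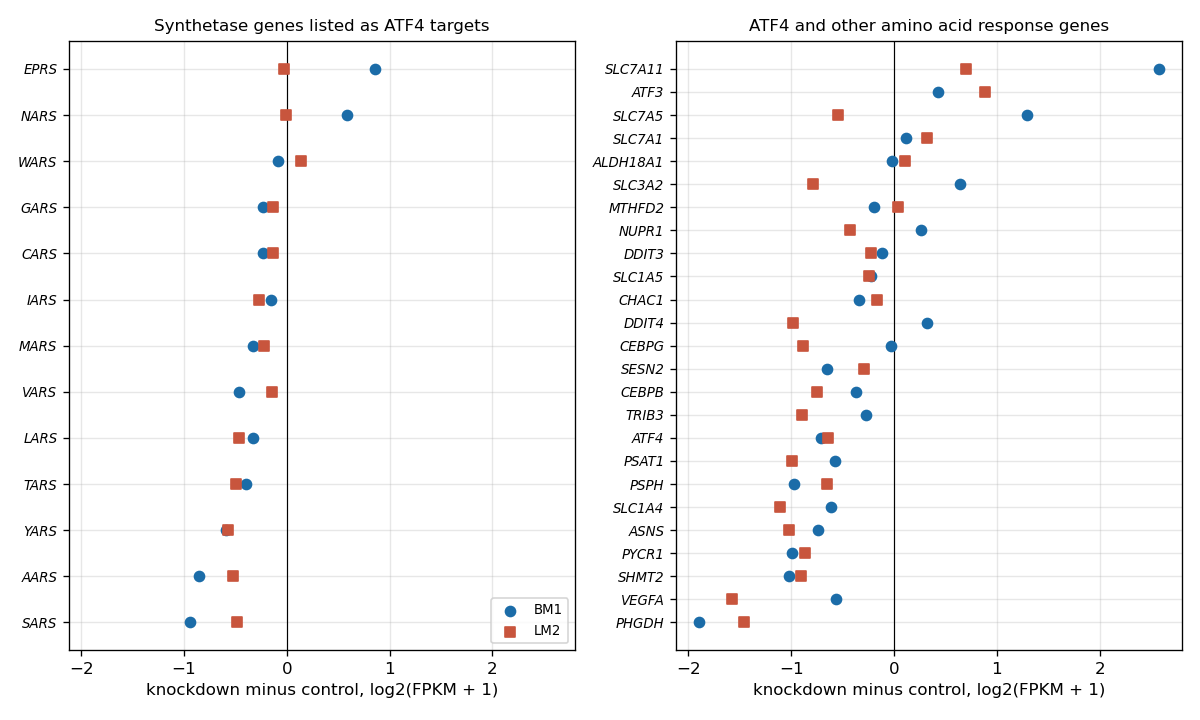
Knockdown minus control on the log2(FPKM + 1) scale in BM1 and LM2 for the 13 synthetase genes of the ATF4 target list and for the wider ATF4 and amino acid response list. PHGDH lies lowest in BM1 and SLC7A11 is high in both lines, while 10 of the 13 synthetase genes lie below 0 in both lines.

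Among 9 genes of stress sensing, 5 were higher and 2 lower in both knockdowns. For this and the lists below, the shares over all genes tested were 33.0% higher in both, 36.2% lower in both and 5.47% called. EIF2AK3, which encodes the endoplasmic reticulum stress kinase PERK, was at 2.60, 10.4, 2.60 and 7.89 FPKM. It rose by 1.49 ± 0.26 (SE) with a limma adjusted p of 0.0197, the 1 sensor past the threshold. The call was lost in 9 of the 14 alternatives, with the difference between 1.30 and 1.77. EIF2AK4, which encodes GCN2, the kinase that responds to uncharged tRNA, was at 30.2, 16.1, 26.2 and 19.6 FPKM, with a limma adjusted p of 0.181. EIF2AK4 was thus lower and EIF2AK3 higher in both lines. Of 6 elongation factor genes, whose products carry charged tRNA to the ribosome or recycle that carrier, 5 were lower in both lines, and limma called none. EEF1B2 was at 492, 313, 426 and 316 FPKM. EEF1A1, which went in opposite directions in the lines, was at 2235, 2857, 1949 and 1932 FPKM. Of 6 tested genes of editing and of tRNA ends and export, 2 were lower in both lines and 2 (AARSD1 and DTD2) higher in both, and limma called none. DTD1, which removes D-amino acids from tRNA, was at 58.2, 31.5, 64.7 and 34.6 FPKM, with non-overlapping groups and a limma adjusted p of 0.0792. Of 7 tested partners of mitochondrial charging, 4 were lower and 1 higher in both lines, and limma called none. TRIT1, a tRNA-modifying enzyme, was at 12.1, 8.10, 7.72 and 4.37 FPKM, and MTFMT, which formylates the initiator tRNA, at 4.56, 2.26, 3.49 and 2.78 FPKM.

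Between the lines, limma called 2 synthetase genes, shares near those of all genes. It called TARS higher in LM2 (1 of 36, 2.78%, against 2.31% of all genes) and VARS2 lower (2.78%, against 2.04%). TARS (chr5:33440802-33469644 on GRCh37, plus strand) was higher in LM2 by 1.12 ± 0.25 (SE), with a limma adjusted p of 0.0443. Both LM2 libraries, at 172 and 121 FPKM, were above both BM1 libraries, at 75.6 and 57.0 FPKM. VARS2, for mitochondrial valine (chr6:30876019-30894236, plus strand), was at 22.9, 16.1, 9.86 and 7.27 FPKM. It was lower in LM2 under both treatments, by a fitted −1.09 ± 0.25 (SE), with a limma adjusted p of 0.0480. Dropping the treatment term alone ended both calls, with limma adjusted p-values of 0.443 for TARS and 0.451 for VARS2. With 1 library left out, a fit that keeps both terms has no residual degree of freedom. Without the treatment term, the difference with 1 library left out was 0.88 to 1.37 for TARS and −1.33 to −0.85 for VARS2, and neither was called.

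VARS2 overlaps GTF2H4 by 5865 bases on the same strand, and GTF2H4 was at 22.6, 7.91, 9.67 and 11 FPKM. Its part in the VARS2 value was not tested. VARS, the cytosolic valine enzyme gene, was at 82.5, 59.6, 56.3 and 51.0 FPKM, also lower in LM2 under both treatments, with a limma adjusted p of 0.423 between lines. EPRS and IARS were higher in both LM2 libraries than in both BM1 libraries, each with a limma adjusted p of 0.0981. The LM2 libraries were both above both BM1 libraries for 10 members (27.8%, against 19.4% of all genes) and both below for 13 (36.1%, against 21.6%). Across the 36 members, the line difference in controls and that in knockdowns had a Pearson r of 0.86, and across all genes 0.54, again as descriptions across genes. Of the 36 members, 18 overlap another listed gene, 6 of them on the same strand.

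**Figure D5:**
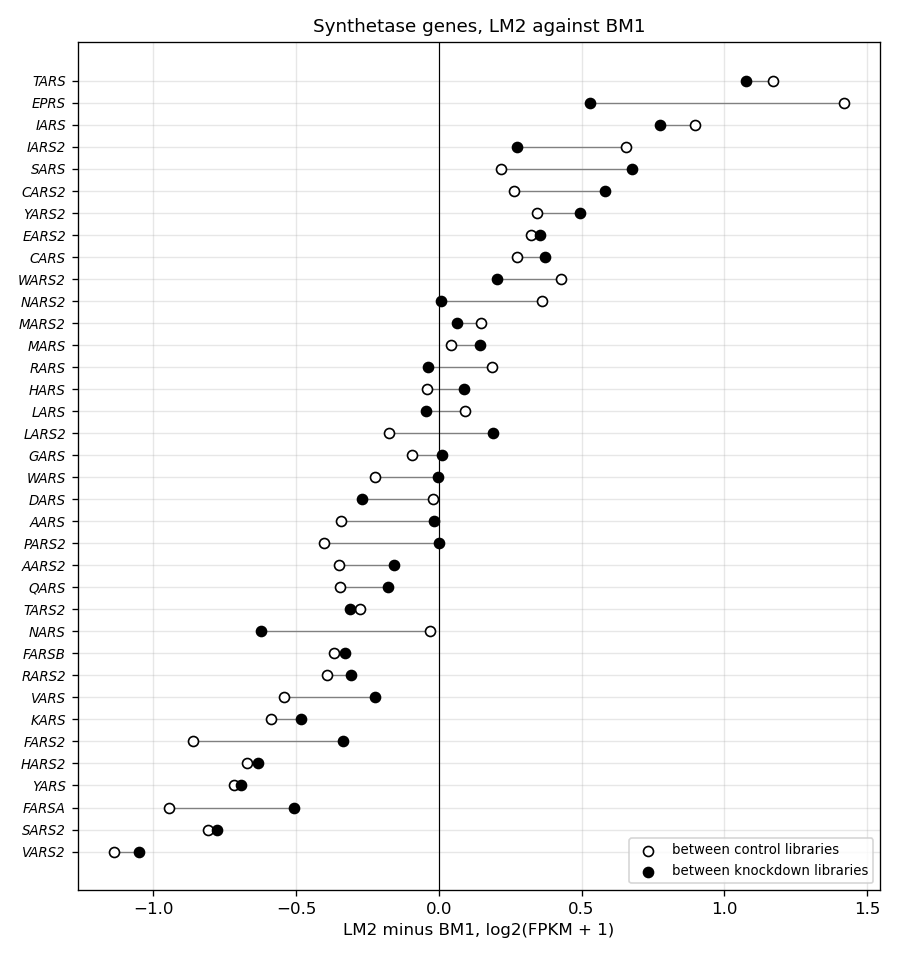
LM2 minus BM1 on the log2(FPKM + 1) scale for each synthetase gene, in control and in knockdown libraries. TARS lies high in both (1.17 and 1.08), and VARS2 is lowest in both (−1.14 and −1.05).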

How the data were processed

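RNA sequencing of 4 libraries was deposited by the authors as 1 table of FPKM values per gene. The submitters' processing notes name STAR 2.5.3a, Cuffdiff 2.2.1 and GRCh37, with no roles. For the annotation release and strand setting, nothing is stated in the sources used here. Of 20369 entries, 40 with repeated gene IDs (3 genes) were left out.

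The 13928 genes with mean FPKM 1 or higher were fitted as log2(FPKM + 1), which understates changes of low genes. Limma 3.58.1 (R 4.3.3) had terms for line and treatment, without trend, and Benjamini-Hochberg adjustment over all genes tested (threshold 0.05, two-sided). Each line pairs its control with its knockdown. The fit was tested on simulated data with independent noise and the same knockdown change in both lines, a simpler setting than these data. That test does not show how reliable the calls in these data are. Members and lists were chosen with earlier results of these data known. Full values were given for members past a threshold, the 3 highest and 3 lowest of each compartment by knockdown difference, and for GARS, KARS, FARSA, FARSB, HARS, HARS2, VARS, VARS2, EPRS and WARS. From other lists, values were given for called genes and for others chosen after their values were seen. GC content and length came from GENCODE 29. Promoters came from RefSeq, and 6 members without a window were not searched.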

Additional observations from a re-analysis of the deposited data

Results flagged for a closer look

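EPRS and NARS had opposite directions in the 2 lines, at least 1.5-fold apart. The knockdown difference in LM2 minus that in BM1 was −0.89 for EPRS and −0.59 for NARS on the log2(FPKM + 1) scale. Each rests on 1 library per line and treatment, and neither difference was tested. Such a pattern was found in 2169 genes, or 15.6% of all genes tested, and in 5.56% of the members. In LM2 alone, the difference was near 0, at −0.0295 for EPRS and −0.0066 for NARS. The median over all genes in LM2 went from −0.0385 to 0.0015 with median-ratio size factors. The sign in LM2 therefore depends on the scaling, and the higher value in BM1 makes up most of the gap.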

How the results depend on the processing

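Limma called 0 members in the knockdown contrast under the 7 alternatives that called any gene (27 to 888 over all genes). The other 7 (no filter, no replicate block, quantile normalization and each library left out, 0 to 0 members) called no gene at all, so they say nothing about the members. In the contrast of lines, the 2 called members became 0 with GC and length trends removed, no filter, no replicate block, pseudocounts of 0.1 or 0.5, quantile normalization, rescaling without the mitochondrial genome, or any 1 library left out (0 to 0), and 1 with size factors. The cytosolic median of −0.18 was −0.12 with GC and length trends removed. The mitochondrial median of −0.07 was 0.016 (reversed) with them removed and −0.13 within BM1. The single member past 1.5-fold in LM2 became 2 with those trends removed, size factors, either pseudocount, quantile normalization and rescaling. The GC and length alternative was chosen after seeing the data. With 1 library left out, no residual degree of freedom remains for the paired fit, so those fits also dropped the other term (line or treatment) and mix in its difference. Their knockdown values crossed 0 for EPRS (−0.29 to 1.12), FARSA (−0.31 to 0.63), FARSB (−0.35 to 0.022), IARS2 (−0.014 to 0.64), KARS (−0.39 to 0.20), TARS (−1.03 to 0.14), VARS2 (−1.0 to 0.13) and WARS (−0.086 to 0.14). Of 322 recomputed values for named members, 13 reversed, all in those fits, and 23 lost a call of TARS or VARS2 between lines. With 1 library left out, the lone library of an arm is assumed to vary like the others. Other causes were not tested.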
